A study of Mus musculus with 17 samples.

Results

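Germ cells of the neonatal testis were compared with stem-cell-enriched germ cells of the adult testis by RNA sequencing of sorted cells. The comparison took 8 of the 17 libraries of the series, chosen by their titles: 4 of gonocytes at postnatal day 6 (P6gonocyte, here the day 6 libraries) and 4 of adult cells positive for GFRA1 (GFRA1pos, here the adult libraries). All were labelled as Tert-Tomato/+ mice on a B6/J X B6/N mixed background, a genotype that puts a red reporter at the gene of telomerase reverse transcriptase. The adult cells were sorted as GFRA1-positive, TERT-high and Kit-negative. The day 6 cells were sorted as positive for TERT and for OCT4-GFP, a reporter of Pou5f1 that the titles name and the genotype label does not. The gates therefore differed by more than age: GFRA1-positive and Kit-negative gates were set in the adult alone, an OCT4-GFP gate at day 6 alone, and the titles give TERT-high for the adult and TERT-positive for day 6. Age, gate and preparation cannot be told apart in this design. The other 9 libraries, 4 of adult GFRA1-negative TERT-high cells (GFRA1neg) and 5 of adult Kit-positive cells (KITpos), entered the fit to share 1 estimate of the spread and are described only where the day 6 values are set beside them.

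Gonocytes are the germ cells of the fetal and newborn testis. Around birth they resume division and move to the edge of the seminiferous tubule, where they either found the pool of spermatogonial stem cells or enter a first wave of differentiation directly. In the adult, stem cell activity lies among undifferentiated spermatogonia that carry GFRA1, the co-receptor for GDNF, a growth factor made by Sertoli cells. GDNF signals through the receptor kinase RET to the MAPK and PI3K pathways and induces transcription factors such as ETV5 and EGR2. KIT, the receptor for stem cell factor, marks both primordial germ cells and differentiating spermatogonia, and retinoic acid drives the step from the undifferentiated to the differentiating state.

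Total counts ran from 10918223 to 11567191 in the adult libraries and from 6479216 to 8468203 at day 6. The most abundant row held 23.3% to 29.8% of the counts in the adult libraries and 9.6% to 14.6% at day 6. Whether each library was made from its own animals is not stated in the labels, and the p-values cover the spread among these libraries, which could be technical. RNA was amplified from a few nanograms before sequencing, and the molecules carried no identifiers. Levels are given as CPM, a gene's counts scaled to a fixed library size, with library sizes adjusted by the TMM method. Each difference is a log2 fold change, day 6 minus adult, with its standard error from edgeR's quasi-likelihood test, and a gene was called at a Benjamini-Hochberg adjusted p under 0.05 over 15451 tested genes. A level is a share of the RNA in a library, so fewer cells of a type and less RNA per cell cannot be told apart.

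Transcripts of spermatids, the haploid cells that follow meiosis, stood in every adult library and were nearly missing at day 6, an age at which the testis holds no spermatids. Prm2, a protamine that packs sperm DNA, had 10.7, 472, 86.9 and 257 CPM in the adult libraries and 0.139, 0, 0 and 0.275 in the day 6 libraries. The adult libraries thus differed among themselves by over an order of magnitude. Over 87 spermatid markers tested, the summed level ran from 966 to 5790 CPM in the adult libraries, with replicates 2 and 4 the highest, and from 611 to 805 at day 6, where most of the sum was the tubulin gene Tuba3a (526, 707, 559 and 528 CPM). Of these markers 83 were lower at day 6 and none higher, against 36 lower by limma voom and 52 in a fit of the 2 groups alone. To set such RNA aside across all genes, each gene's deviations from its group mean in the 13 adult libraries of the series were compared with those of the spermatid list. The day 6 libraries took no part in this. A gene was called spermatid-linked where the correlation was over 0.5 and the slope over 0.3 on log2(CPM + 0.5), a rule chosen after the data were seen. This marked 1807 genes, among them 83 of the 87 spermatid markers. The markers were compared with a mean that they form themselves, so their number does not test the rule.

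Sertoli cells, the somatic nurse cells of the tubule, left the opposite pattern. Of 41 Sertoli markers tested, 25 were higher at day 6 and 1 lower, with a median log2 fold change of 1.93; 20 were higher without day 6 replicate 2 and 15 without adult replicates 2 and 4. Their summed level was 291 to 317 CPM in the adult libraries, and at day 6 it was 955 CPM in replicate 2 with a group median of 437. Defining Sertoli genes were present at low levels at day 6. The hormone gene Amh had 3.75, 6.25, 3.42 and 3.16 CPM, the transcription factor gene Sox9 4.30, 10.7, 4.35 and 5.08 CPM, and the adult libraries had 1.60, 1.27, 0.101 and 0.253 and 2.22, 0.293, 2.11 and 0.422 CPM. Sertoli markers stood in day 6 replicate 2 at a median of 2.41 times their mean in the other 3 libraries, where the same ratio over all genes was 1.04. That library also had the lowest Pou5f1 level of its group. Values without it are given beside the results that moved, and the part of Sertoli RNA in those results was not tested. Among markers of other somatic cells, 2 of 13 for Leydig cells and 5 of 12 for myoid cells and fibroblasts were higher at day 6 and 1 and 2 lower. None of 6 for macrophages and 7 for endothelium were higher and 2 of each were lower. These small counts moved by up to 2 members when 1 library was left out.

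**Figure D1:**
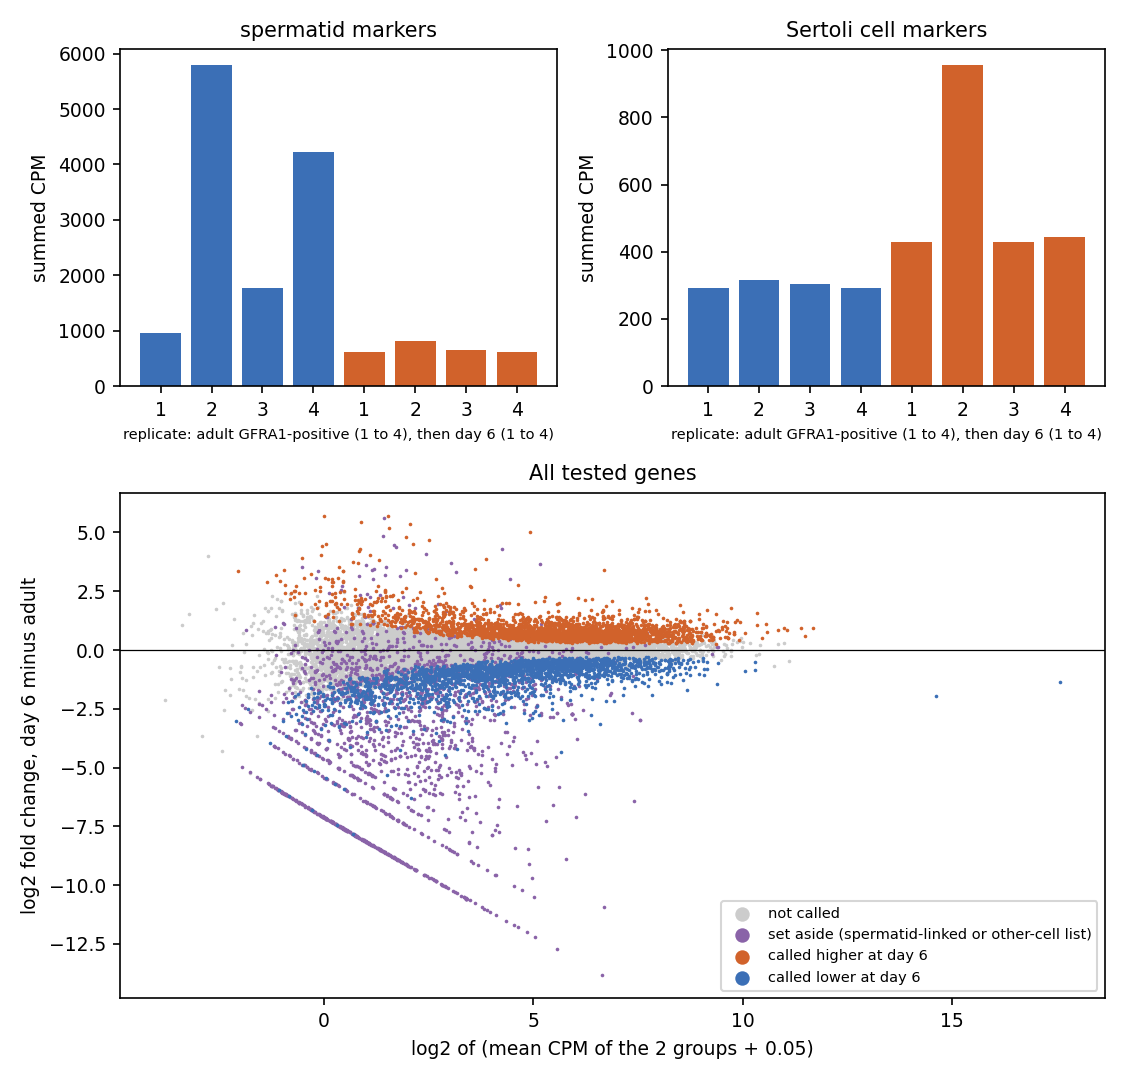
The upper bars give the summed CPM of spermatid and Sertoli markers in each of the 4 adult (blue) and 4 day 6 (orange) libraries; spermatid markers reached 5790 CPM in adult replicate 2, and Sertoli markers 955 CPM in day 6 replicate 2. The lower plot gives each tested gene's log2 fold change, day 6 minus adult, against its mean level, with genes that were set aside in purple; most of the falls below -4 were such genes, and the lowest diagonal lines are genes with 0 or few counts at day 6.

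Over all tested genes, 2679 were higher at day 6 (17.3%) and 3381 lower (21.9%). The 2 directions differed in size, since 1305 of the lower genes and 146 of the higher ones changed over 4-fold. Of the 3381 lower genes 1262 were spermatid-linked, and the linked share was 81.6% of those lower by over 4-fold and 97.4% of the 721 lower by over 16-fold. With the linked genes and the markers of other cells set aside, 13559 genes were left, of which 2635 were higher (19.4%) and 2111 lower (15.6%), with 116 and 238 over 4-fold. A stricter correlation of 0.7 left 2642 higher and 2328 lower. The libraries of both groups did not overlap for 6409 of all tested genes (41.5%), so a gap between the groups is common here. Without adult replicates 2 and 4, highest in spermatid transcripts, 1420 genes were higher and 2038 lower, and of the genes left 1364 and 1419.

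The genes of the sorting markers were looked at first. Gfra1 (Entrez 14585) was lower at day 6 but far from absent, with 394, 385, 425 and 355 CPM in the adult libraries and 151, 118, 154 and 157 in the day 6 libraries, at -1.43 ± 0.26 (SE; edgeR adjusted p = 0.00043). Kit (Entrez 16590) had 12.6, 20.8, 17 and 20.2 CPM in the adult libraries and 172, 231, 182 and 166 in the day 6 libraries. Every day 6 library stood above every adult one, by about an order of magnitude, at 3.41 ± 0.28 (SE; edgeR adjusted p = 4.4e-07). The adult cells were gated for GFRA1 and against Kit and the day 6 cells were not, so for Gfra1 and Kit age and gate cannot be told apart. Pou5f1 (Entrez 18999), which encodes the pluripotency factor OCT4 and drives the day 6 reporter, had 3.19, 1.85, 3.02 and 4.31 CPM in the adult libraries and 23.1, 5.53, 26.3 and 24.1 in the day 6 libraries. It was higher at day 6, at 2.66 ± 0.49 (SE; edgeR adjusted p = 0.00043), although day 6 replicate 2 lay just above the adult range. Tert, the reporter gene shared by both sorts, was at 7.25 to 7.21 CPM in the means and did not pass, at -0.01 (edgeR adjusted p = 0.99). Pou5f1 stood well above the adult range in 3 of the 4 day 6 libraries, and Gfra1 RNA was measured in all of them.

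**Figure D2:**
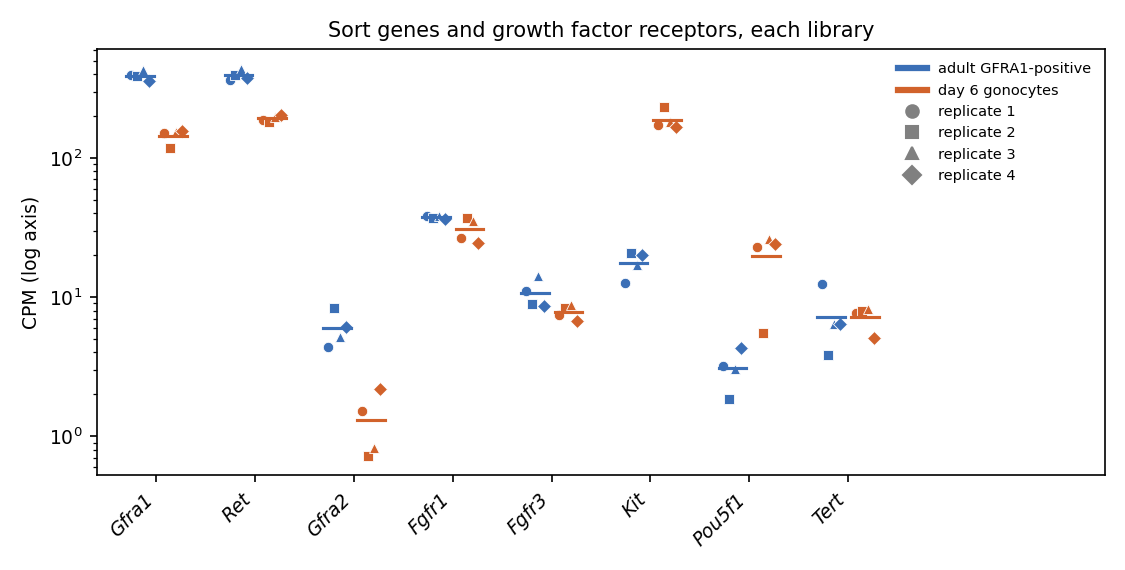
CPM on a log axis for the sort genes and receptors of GDNF and FGF in each library, adult in blue and day 6 in orange, with a mark per replicate and a bar at the group mean. Gfra1 and Ret were lower and Kit and Pou5f1 higher at day 6, where replicate 2 had 5.53 CPM of Pou5f1. Adult and day 6 ranges were separate for all 4, as they were for 41.5% of all tested genes.

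Among the GDNF and FGF receptors and their relatives, Ret was lower at day 6 and most members did not pass. Ret (the kinase partner of GFRA1) had 361, 392, 438 and 378 CPM in the adult libraries and 187, 182, 197 and 202 in the day 6 libraries, at -1.03 ± 0.23 (SE; edgeR adjusted p = 0.0016). The adult gate selected for its partner GFRA1, and the part of that gate in the Ret and MAPK values was not tested. Of 11 tested genes for GDNF and FGF ligands' receptors and relatives, 3 fell (27.3%) and none rose, with a median of -0.28. The lower share was near the 21.9% over all tested genes, of which 17.3% rose. The other falls were Gfra2, the co-receptor for neurturin (-2.18 (edgeR adjusted p = 0.0079)), which was spermatid-linked, and Nrtn, neurturin itself, which was under 1 CPM in all 8 libraries (-2.51 (edgeR adjusted p = 0.028)) and did not pass without adult replicate 3 or 4 or day 6 replicate 1 or 2 (edgeR adjusted p = 0.056 to 0.075). Over the fits that each left out 1 library, 2 to 4 members of the list fell. The FGF receptors Fgfr1 (-0.28 (edgeR adjusted p = 0.26)) and Fgfr3 (-0.44 (edgeR adjusted p = 0.16)) did not pass, nor did the related Fgfrl1 (0.29 (edgeR adjusted p = 0.18)).

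Targets and feedback regulators of MAPK signalling were mostly lower at day 6. Of 22 tested members 17 fell and 2 rose, with a median log2 fold change of -1.34, against -0.05 over all tested genes, and no member was spermatid-linked. Egr2 (Entrez 13654), an early growth response transcription factor induced by GDNF, had 204, 203, 249.6 and 209 CPM in the adult libraries and 71.4, 55.7, 72.5 and 82.5 in the day 6 libraries, at -1.62 ± 0.20 (SE; edgeR adjusted p = 1.8e-05). Etv5, an ETS factor that undifferentiated spermatogonia need for self-renewal, had 425, 414, 462 and 392 CPM in the adult libraries and 161, 134, 179.6 and 188 in the day 6 libraries, at -1.35 ± 0.30 (SE; edgeR adjusted p = 0.0016). The 4 libraries of each group were close to one another for both genes and the groups lay well apart. Egr1 (-1.32 ± 0.17), the phosphatase gene Dusp1, whose product switches MAPKs off (-1.53 ± 0.21), and Spry2, a Sprouty inhibitor of receptor kinase signalling (-2.06 ± 0.33), fell as well. Spry2 had 22.2, 16.2, 21.3 and 16.2 CPM in the adult libraries and 5.55, 3.85, 4.45 and 4.40 in the day 6 libraries. Ccnd1, encoding cyclin D1, went the other way (0.69 ± 0.12). The inhibitors Spred1 (-0.13 (edgeR adjusted p = 0.61)) and Phlda1 (-0.79 (edgeR adjusted p = 0.25)) did not pass. Over the fits that each left out 1 library, 12 to 16 members fell and 1 or 2 rose, and 10 fell without adult replicates 2 and 4.

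Stem-cell-associated genes followed a similar course in smaller numbers, with 12 of 29 tested members lower and 2 higher at a median of -0.72. Etv5 alone is shared with the MAPK list. Eomes, a T-box factor found in a subset of GFRA1-positive cells, fell by 2.39 on the log2 scale, from 27.2 CPM ± 2.05 in the adult and 5.17 ± 0.537 in the day 6 libraries (SD, n = 4 each). Pdx1, a homeobox factor, had 6.83, 11.6, 7.45 and 7.35 CPM in the adult libraries and 0, 0.361, 0 and 0 in the day 6 libraries, so that it was at 0 in 3 of the 4 day 6 libraries, with the few remaining counts in replicate 2; its log2 fold change was -6.29 ± 0.88, and -9.23 without that library. The adhesion molecule gene Mcam (-1.14 ± 0.15) and the receptor kinase gene Erbb3 (-1.29 ± 0.23) also fell. Itgb1, the integrin subunit through which germ cells bind laminin, rose, at 0.92 ± 0.12 (SE; edgeR adjusted p = 2.2e-05). The forkhead factor gene Foxo1 (-0.33 (edgeR adjusted p = 0.15)), the TFIID subunit gene Taf4b (0.12 (edgeR adjusted p = 0.51)) and the laminin receptor gene Itga6 (0.16 (edgeR adjusted p = 0.45)) did not pass. Without day 6 replicate 2 the list had 8 lower members in place of 12, and 9 without adult replicates 2 and 4, and the ratio of that library to the others was 0.87 over the list.

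Genes of spermatogonial differentiation were mostly higher at day 6. Of 17 tested members other than Kit, 11 rose (64.7%) and 1 fell (5.9%), with a median of 0.92. Over all tested genes 17.3% rose and 21.9% fell. Kit-positive cells were gated out in the adult alone, and the part of that gate in these values was not tested. Stra8, the retinoic acid target needed for entry into meiosis, had 24.2, 22.4, 19.5 and 27.4 CPM in the adult libraries and 69.8, 111, 65.1 and 48.1 in the day 6 libraries, at 1.65 ± 0.22 (SE; edgeR adjusted p = 3.2e-05). Every day 6 library was above the adult range, and day 6 replicate 2 was the highest. Dmrt1, a DM-domain regulator of the switch between mitosis and meiosis, rose by 0.92 on the log2 scale, from 77.1 CPM ± 14.4 in the adult and 146 ± 12.8 in the day 6 libraries (SD, n = 4 each). The methyltransferase gene Dnmt3b (0.98 ± 0.16), Crabp1, a carrier of retinoic acid (1.05 ± 0.22), Stk31 (1.00 ± 0.22) and the X-linked homeobox gene Rhox13 (0.91 ± 0.22) rose too. Crabp1 was 2.04 times as high in day 6 replicate 2 as in the mean of its group's other libraries. Sox12 (-0.38 (edgeR adjusted p = 0.12)) and Meioc, a meiosis regulator (0.38 (edgeR adjusted p = 0.36)), did not pass. Without day 6 replicate 2, 8 members rose and none fell, and without adult replicates 2 and 4, 9 rose.

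Enzymes and carriers of the retinoic acid pathway were mixed, with 8 of 21 tested members higher and 3 lower, a list that shares Stra8 and Crabp1 with the one above. Aldh1a1, which makes retinoic acid from retinal and is also made by Sertoli cells, had 2.04, 0.878, 3.12 and 1.27 CPM in the adult libraries and 38.3, 125, 36.8 and 36.6 in the day 6 libraries, at 5.01 ± 0.86 (SE; edgeR adjusted p = 0.00026). Its level in day 6 replicate 2 was 3.35 times the mean of the other day 6 libraries, which is above the ratio of 2.41 for Sertoli markers, and its log2 fold change without that library was 4.35. Another retinal dehydrogenase gene, Aldh1a3, fell, at -2.24 ± 0.53 (SE; edgeR adjusted p = 0.0027), and so did the retinoid receptor gene Rxra (-0.62 ± 0.15). Rxrb (0.02 (edgeR adjusted p = 0.95)) and Rec8 (0.36 (edgeR adjusted p = 0.4)) did not pass.

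Several genes of germ cell identity rose. Dazl, an RNA-binding protein that fetal germ cells need to commit to gametogenesis, had 295, 219, 235 and 308 CPM in the adult libraries and 799, 741, 907 and 1032 in the day 6 libraries, at 1.72 ± 0.17 (SE; edgeR adjusted p = 2.2e-06). Ddx4, the germ cell RNA helicase also called VASA, rose by 1.06 ± 0.16, and the RNA-binding partner of NANOS proteins, Dnd1, by 0.90 ± 0.20. Lin28b, which blocks maturation of let-7 microRNAs and is typical of fetal tissues, had 50.7, 35.4, 41.9 and 41.0 CPM in the adult libraries and 103, 100.0, 104 and 122 in the day 6 libraries, at 1.34 ± 0.18 (SE; edgeR adjusted p = 4.1e-05). Adult and day 6 ranges were separate for each of these 4 genes, as they were for 41.5% of all tested genes. Dppa3, a factor that protects methylated DNA in early embryos and germ cells, rose by 2.91 ± 0.63 at low levels (0.250 to 1.99 CPM in the means), and by 3.85 without adult replicate 1. Sall4, a zinc finger factor of pluripotent and undifferentiated cells, fell, at -1.04 ± 0.24 (SE; edgeR adjusted p = 0.0024). Of the 25 tested genes for pluripotency and primordial germ cell factors other than Pou5f1, 7 rose and 5 fell, with a median of -0.17, and without adult replicate 3 the lower count was 3. The members Nr5a2 (-0.09 (edgeR adjusted p = 0.81)), Alpl (-0.41 (edgeR adjusted p = 0.27)) and Klf4 (-0.39 (edgeR adjusted p = 0.12)) did not pass.

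Let-7 targets as a group did not follow Lin28b. Of 18 tested targets known from fetal tissues 4 rose (22.2%) and 7 fell (38.9%), with a median of -0.20. The list holds Lin28b itself, which is among the 4 that rose. Over all tested genes 17.3% rose and 21.9% fell. Without day 6 replicate 4 the lower count was 4. Igf2bp3, an RNA-binding protein of fetal tissues, rose (0.53 ± 0.14), while its relative Igf2bp1 (-0.72 ± 0.16), the growth factor gene Igf2 (-1.44 ± 0.23), its receptor Igf1r (-0.96 ± 0.16) and the ubiquitin ligase gene Trim71 (-0.81 ± 0.19) fell. Hmga1 (-0.12 (edgeR adjusted p = 0.58)), a chromatin protein, and Dicer1 (0.25 (edgeR adjusted p = 0.19)), which cuts microRNA precursors, did not pass. MicroRNAs themselves were not measured in these libraries.

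Genes read as marks of primed progenitors, the adult cells next in line to differentiate, showed no common direction. Of 15 tested members 5 rose (33.3%) and 4 fell (26.7%), at a median of 0.28, and Dazl, Ddx4 and Dnd1 are among the 5. Over all tested genes the shares were 17.3% and 21.9%. Sohlh2, a helix-loop-helix factor of early differentiation, rose too (0.80 ± 0.17). Foxo3 fell from 235 CPM ± 20.2 in the adult and 93.0 ± 11.4 in the day 6 libraries (SD, n = 4 each), at -1.34 ± 0.19 (SE; edgeR adjusted p = 6.5e-05). Glis3, a Krüppel-like zinc finger factor, fell by 0.82 ± 0.19. Upp1 (-0.34 (edgeR adjusted p = 0.47)), Sox3 (0.44 (edgeR adjusted p = 0.32)) and the retinoic acid receptor gene Rarg (0.26 (edgeR adjusted p = 0.39)) did not pass.

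**Figure D3:**
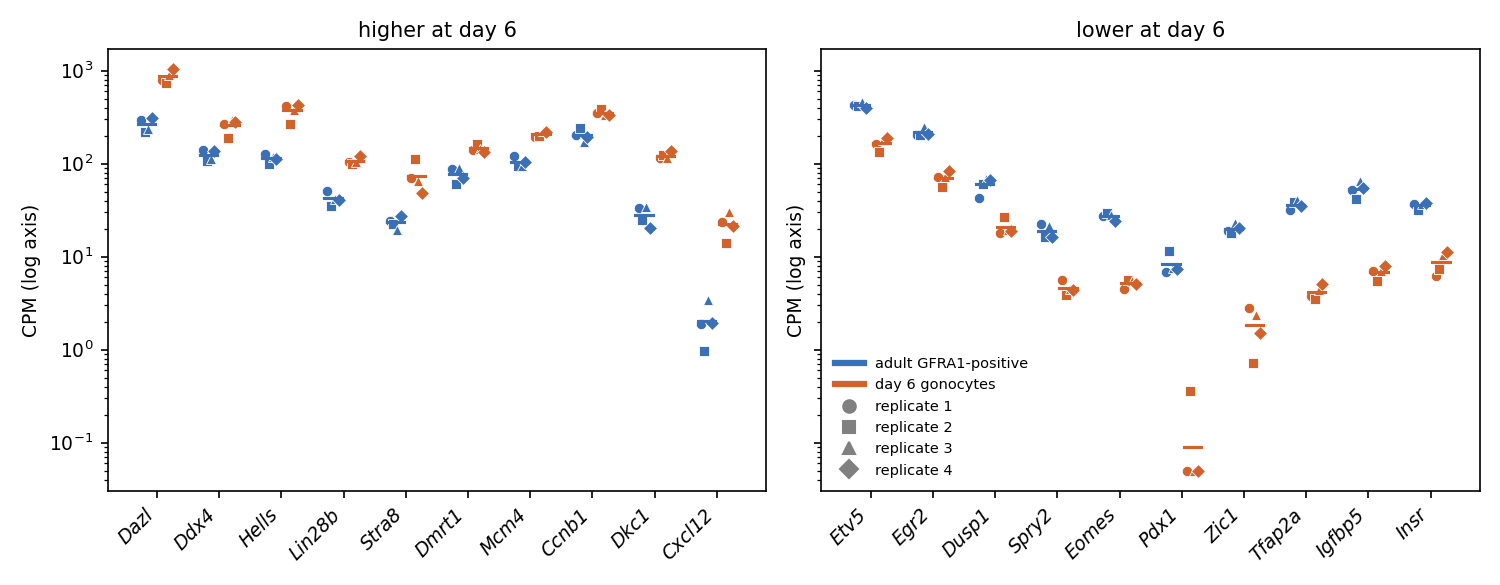
CPM on a log axis in each library for 20 named genes, 10 higher (left) and 10 lower (right) at day 6, adult in blue and day 6 in orange with a mark per replicate and a bar at the group mean; values under 0.05 CPM are drawn at 0.05. Adult and day 6 ranges were separate for each gene, as they were for 41.5% of all tested genes, and Pdx1 was at 0 in 3 day 6 libraries.

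Many genes of DNA replication and mitosis were higher at day 6. Of 50 tested DNA replication genes 25 rose and 1 fell, with a median of 0.42, and of 38 mitosis genes 19 rose and none fell, with a median of 0.32. Mcm4, a subunit of the replicative helicase, had 119, 95.1, 94.1 and 104 CPM in the adult libraries and 192, 200.2, 223 and 219 in the day 6 libraries, at 1.02 ± 0.12 (SE; edgeR adjusted p = 8.8e-06). All 4 day 6 libraries lay above the adult range, which was narrow. Pcna, the sliding clamp (0.89 ± 0.14), Gmnn, the inhibitor of origin licensing (1.07 ± 0.19), the origin recognition genes Orc2 (0.92 ± 0.17) and Orc3 (0.69 ± 0.12) and the clamp loader gene Rfc1 (0.79 ± 0.16) rose. The helicase subunits Mcm3 (0.34 (edgeR adjusted p = 0.085)) and Mcm7 (0.26 (edgeR adjusted p = 0.13)) and the ligase gene Lig1 (0.10 (edgeR adjusted p = 0.56)) did not pass.

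Among mitosis genes, Ccnb1, encoding cyclin B1, had 205, 239, 169 and 193 CPM in the adult libraries and 347, 389.9, 330.3 and 337 in the day 6 libraries, at 0.80 ± 0.12 (SE; edgeR adjusted p = 6.6e-05). Kif4, a chromosome-bound kinesin (1.02 ± 0.12), Ndc80, a kinetochore protein (1.07 ± 0.18), the spindle factor gene Tpx2 (0.63 ± 0.11) and the topoisomerase gene Top2a (0.78 ± 0.15) rose with it. The checkpoint genes Bub1b (0.26 (edgeR adjusted p = 0.13)) and Mad2l1 (0.25 (edgeR adjusted p = 0.21)) did not pass. Genes of the G1 phase were split, with 5 of 25 tested members higher and 4 lower. The kinase gene Cdk6 (1.36 ± 0.13) and the cyclin gene Ccne2 (0.97 ± 0.22) rose, and the CDK inhibitor gene Cdkn1b (-1.44 ± 0.35) and the transcription factor gene E2f1 (-0.60 ± 0.17) fell. Over the fits that each left out 1 library, 17 to 25 replication genes and 16 to 18 mitosis genes rose. Without adult replicates 2 and 4 those counts were 11 and 14. The single replication gene that fell was called in 1 of these 8 fits.

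Many histone genes were lower at day 6. Of 64 tested genes for replication-dependent and linker histones 35 fell and 1 rose, with a median of -1.04. H4c4 had 639, 655, 726 and 489 CPM in the adult libraries and 177, 260.2, 179 and 160.2 in the day 6 libraries, at -1.69 ± 0.27 (SE; edgeR adjusted p = 0.00016), and H2ac4 had 68.5, 79.0, 84.6 and 52.2 CPM in the adult libraries and 19, 22.1, 16.8 and 14.3 in the day 6 libraries, at -1.98 ± 0.25 (SE; edgeR adjusted p = 2.3e-05). The groups did not overlap for either gene. H2bc9 (-2.90 ± 0.29), H3c6 (-1.89 ± 0.22) and H4c6 (-3.88 ± 0.48) fell as well. H2bc23 (-0.02 (edgeR adjusted p = 0.97)), the linker histone gene H1f1 (-0.29 (edgeR adjusted p = 0.41)) and H2bc12 (-0.03 (edgeR adjusted p = 0.95)) did not pass. Histone genes are near-identical copies whose reads the authors' counting could split, so values of single genes are uncertain. Their transcripts end in a stem-loop and mostly carry no poly(A) tail, and how the cDNA priming treats such RNA at the 2 ages was not tested. Without day 6 replicate 2, 37 fell, and without adult replicates 2 and 4, 30 fell.

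Promoter windows of 4 genes are printed because they stand for these groups. Kit stands for the sort genes, Hells, a chromatin remodeler described below, for the rises, Egr2 for the MAPK targets and H2ac4 for the histones. Each holds 250 bases before and 50 after the start of transcription in RefSeq on GRCm38.p6, given 5′ to 3′ on the gene's strand, and where several starts are listed the first was used. Capitals mark matches on either strand to 3 motifs: TCCCGC, the core of the E2F site, CACGTG, the E-box core, and ATGCAAAT, the octamer bound by POU factors.
Kit promoter, chr5:75574737-75575036, plus strand: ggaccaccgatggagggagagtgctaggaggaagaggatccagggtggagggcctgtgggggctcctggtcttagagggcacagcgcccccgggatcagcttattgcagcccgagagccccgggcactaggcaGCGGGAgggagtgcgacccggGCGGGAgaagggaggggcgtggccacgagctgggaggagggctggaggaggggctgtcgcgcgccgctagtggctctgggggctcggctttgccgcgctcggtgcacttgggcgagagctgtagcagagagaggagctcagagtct
Hells promoter, chr19:38930740-38931039, plus strand: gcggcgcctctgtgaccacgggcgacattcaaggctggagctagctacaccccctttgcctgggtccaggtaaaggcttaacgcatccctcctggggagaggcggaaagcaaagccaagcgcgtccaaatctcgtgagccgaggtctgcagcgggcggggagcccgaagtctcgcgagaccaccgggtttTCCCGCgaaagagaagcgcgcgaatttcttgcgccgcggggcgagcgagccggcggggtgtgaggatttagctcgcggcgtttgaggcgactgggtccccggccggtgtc
Egr2 promoter, chr10:67535249-67535548, plus strand: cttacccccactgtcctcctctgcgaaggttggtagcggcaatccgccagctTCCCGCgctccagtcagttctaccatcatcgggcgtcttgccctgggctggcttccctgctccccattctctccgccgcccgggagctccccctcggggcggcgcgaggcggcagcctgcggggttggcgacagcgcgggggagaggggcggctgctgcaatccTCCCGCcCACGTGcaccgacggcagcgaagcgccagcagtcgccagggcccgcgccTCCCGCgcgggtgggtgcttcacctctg
H2ac4 promoter, chr13:23750838-23751137, plus strand: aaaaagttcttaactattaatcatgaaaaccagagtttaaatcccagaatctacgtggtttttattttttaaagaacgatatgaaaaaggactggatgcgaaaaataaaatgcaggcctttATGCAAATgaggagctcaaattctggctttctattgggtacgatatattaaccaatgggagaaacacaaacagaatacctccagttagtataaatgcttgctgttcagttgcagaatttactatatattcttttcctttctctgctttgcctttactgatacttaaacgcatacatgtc
The Kit window held 2 matches to TCCCGC, both on the reverse strand and so shown as its complement, and 20 CpG sites. The Hells window held 1 match to TCCCGC and 34 CpG sites, the Egr2 window 1 match to CACGTG, 3 to TCCCGC and 32 CpG sites, and the H2ac4 window 1 octamer and 5 CpG sites. Among 12164 tested genes with a window, 33.7% held TCCCGC, 10.0% CACGTG and 1.4% ATGCAAAT. A match is a description of the letters and not a site of binding.

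Motif shares were compared between members of a list that were called and members that were not, with no test. TCCCGC was in 68.3% of 41 DNA replication genes with a window, namely in 70.0% of the 20 that rose and in 66.7% of the 21 that were not called. The longer form TTTCCCGC, which contains TCCCGC, was in 10.0% of those that rose, 23.8% of those not called and 2.0% of all genes, and TTTGGCGC, another form of the E2F site, in 5.0% and 28.6%. ATGCAAAT was in 20.3% of 59 histone genes, that is in 18.8% of 32 that fell and 23.1% of 26 not called, and TCCCGC was in 25.0% and 11.5% of these. Among genes left after setting aside, the 2121 higher ones had TCCCGC in 38.0% and a median of 23 CpG sites, and the 1648 lower ones 37.6% and 21. The spermatid-linked genes had fewer CpG sites in their windows, a median of 8, and held TCCCGC in 17.2% of 1403 cases.

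DNA methylation marks are laid down anew in male germ cells around birth. Of 22 tested genes of DNA methylation and its removal, 7 rose at day 6 and 2 fell, at a median of 0.27; the lower count was 1 without adult replicate 1 or 3 or day 6 replicate 1 or 3. Hells (Entrez 15201), which helps methyltransferases reach compact chromatin, had 128, 97.9, 117 and 113 CPM in the adult libraries and 416, 268, 378 and 429 in the day 6 libraries, at 1.71 ± 0.18 (SE; edgeR adjusted p = 4.8e-06). Day 6 replicate 2 was the lowest of its group and still above every adult library. The de novo enzymes Dnmt3a (0.63 ± 0.15) and Dnmt3b rose, the glycosylase gene Tdg (0.96 ± 0.18) rose, and the methyl-binding protein gene Mbd2 (-0.70 ± 0.14) fell. The maintenance enzyme gene Dnmt1 (-0.13 (edgeR adjusted p = 0.52)), its partner Uhrf1 (-0.06 (edgeR adjusted p = 0.75)) and the corepressor gene Trim28 (0.08 (edgeR adjusted p = 0.71)) did not pass. Dnmt3l, the cofactor that prospermatogonia use for de novo methylation, was near the detection limit, with 0.798, 0.0976, 0.503 and 0.422 CPM in the adult libraries and 0.694, 1.08, 0.621 and 1.24 in the day 6 libraries, and did not pass at 0.96 (edgeR adjusted p = 0.27).

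Of 26 piRNA genes, which silence transposons in the germ line, 6 rose and 5 fell, a count near the background, and 3 of the 5 falls were spermatid-linked. Without day 6 replicate 4 the lower count was 3. Tdrkh (1.15 ± 0.16) and Asz1 (0.85 ± 0.15), both of the mitochondrial surface where piRNAs are trimmed, rose with Ddx4. Tdrd1 (-0.12 (edgeR adjusted p = 0.55)) and Piwil2 (0.27 (edgeR adjusted p = 0.17)) did not pass. Polycomb and other repressive histone methylation genes had 13 of 50 members higher (26.0%) and 9 lower (18.0%), at a median of 0.07. Over all tested genes the shares were 17.3% and 21.9%. No rise on this list exceeded 2-fold and 6 falls did, and its 6 members of smallest adjusted p were all lower. Among these the Polycomb subunit genes Scmh1 (-1.24 ± 0.17), Phc1 (-0.86 ± 0.12) and Cbx7 (-1.56 ± 0.26) fell. Setdb1 (0.13 (edgeR adjusted p = 0.44)) did not pass.

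Of 37 tested imprinted genes 6 rose (16.2%) and 10 fell (27.0%), with a median of -0.04, shares near the 17.3% and 21.9% over all genes. H19, a noncoding RNA of the maternal allele, fell by 2.11 ± 0.16 and the receptor gene Igf2r fell by 1.07 ± 0.19, in the same direction as Igf2. The ubiquitin ligase gene Ube3a rose (1.36 ± 0.19). Of 36 tested genes of insulin and IGF signalling, 16 fell and 7 rose, with a median of -0.41. Insr, the insulin receptor, had 37.2, 31.3, 36.7 and 37.6 CPM in the adult libraries and 6.25, 7.33, 10.5 and 11.1 in the day 6 libraries, at -2.02 ± 0.29 (SE; edgeR adjusted p = 6.3e-05). Its adult libraries were alike and all 4 day 6 libraries were lower. Igfbp5, a binding protein for IGFs, had 51.5, 41.2, 65.5 and 54.7 CPM in the adult libraries and 6.94, 5.41, 6.93 and 7.97 in the day 6 libraries, at -2.96 ± 0.36 (SE; edgeR adjusted p = 1.8e-05). Foxo6 (-1.91 ± 0.22) and the stress sensor gene Sesn2 (-1.35 ± 0.20) fell, and Foxo1 and Mtor (-0.32 (edgeR adjusted p = 0.12)) did not pass. Over the fits that each left out 1 library, 14 to 16 members of the list fell, and 14 fell without adult replicates 2 and 4.

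Some genes for protein synthesis and respiration were higher at day 6, and their number depended on day 6 replicate 2. Of 83 tested ribosomal protein genes 42 rose and none fell, with a median of 0.46, and 21 rose without day 6 replicate 2, where the list stood at a median of 1.5 times the other day 6 libraries. Of 81 tested oxidative phosphorylation genes 26 rose and 3 fell, and without day 6 replicate 2, where the ratio was 1.43, 13 rose and 6 fell. Without adult replicate 4 the oxidative phosphorylation list had 17 higher, and without adult replicates 2 and 4 the higher counts were 19 and 10. Rpl7a, of the large ribosomal subunit, had 351, 323, 342 and 339.9 CPM in the adult libraries and 711, 952, 592 and 649 in the day 6 libraries, at 1.10 ± 0.15 (SE; edgeR adjusted p = 3.2e-05). The ATP synthase genes Atp5pb (1.45 ± 0.14) and Atp5b (0.92 ± 0.14) and the cytochrome gene Cyc1 (1.01 ± 0.17) rose. Rps24 (0.50 (edgeR adjusted p = 0.074)) and Cox4i1 (0.33 (edgeR adjusted p = 0.1)) did not pass. These changes were under 2-fold for most members and smaller than those of the MAPK and histone lists.

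Cholesterol synthesis genes had 9 of 26 members higher and none lower, among them Idi1 (1.13 ± 0.14), Msmo1 (1.01 ± 0.16) and Cyp51 (0.86 ± 0.13), with 2 lower without day 6 replicate 2 and 1 without adult replicate 4 or day 6 replicate 1. Glutathione and antioxidant genes had 16 of 51 higher and 6 lower, and 10 higher without day 6 replicate 2. Gstm2, a glutathione transferase, had 1.33, 1.66, 3.22 and 1.27 CPM in the adult libraries and 19, 56.4, 13.6 and 20.5 in the day 6 libraries, at 3.87 ± 0.55 (SE; edgeR adjusted p = 5.9e-05), and its level in replicate 2 was 3.19 times that of the group's other libraries, with a log2 fold change of 3.24 without it. Catalase, Cat (1.03 ± 0.15), and thioredoxin, Txn1 (1.20 ± 0.21), rose as well.

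Genes on the X chromosome were higher at day 6 more often than those on any autosome, a pattern chosen after the data were seen. Of the genes left after setting aside, 574 lay on the X, of which 39.9% were higher and 3.8% lower, with a median log2 fold change of 0.54. Over the 19 autosomes, taken 1 by 1, the higher share ran from 10.9% to 24.9%, the lower share from 10.0% to 21.5% and the median from -0.08 to 0.19. Without genes that share their counts with another gene the higher share on the X was 39.5%. With nothing set aside the higher share was 35.0% on the X and 16.5% outside the X and Y. The lower share was then 14.7% and 22.1%, so the low share of falls on the X depended on the setting aside. Under the alternatives run, the higher share was 13.8% to 47.4% on the X and 3.9% to 24.6% on the autosomes. The lowest pair was at a fold threshold of 1.5. Without day 6 replicate 2 the higher share was 36.2% and 16.2%, and without adult replicates 2 and 4 it was 23% and 9.4%. Against GFRA1neg the X median was 0.52, and the autosomes ran from -0.16 to 0.10. Against KITpos the X median was 0.25, inside the autosome range of -0.10 to 0.27.

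**Figure D4:**
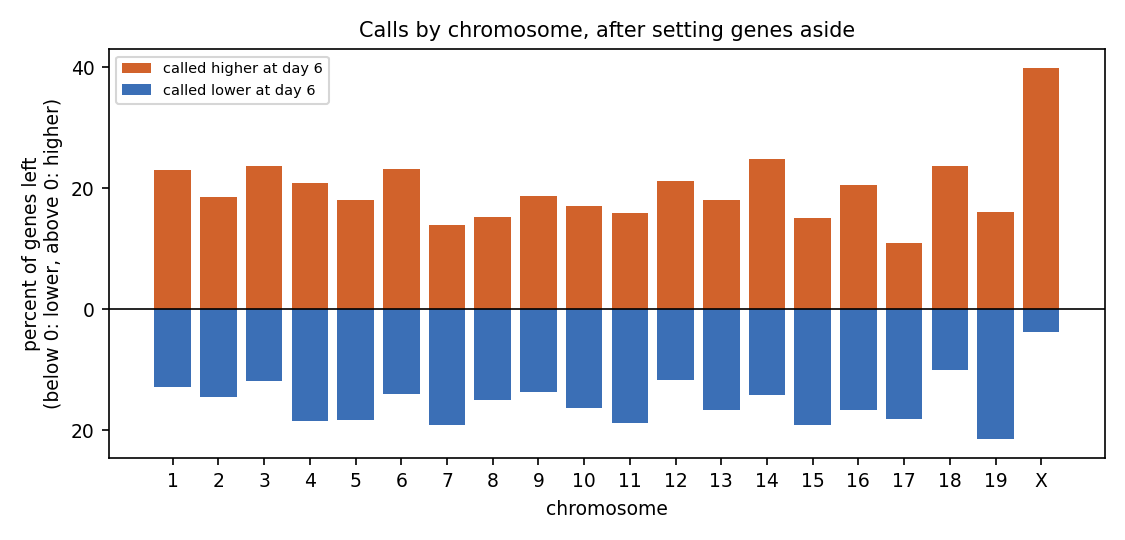
For each autosome and the X, the percent of genes left after setting aside that were called higher (orange, above 0) or lower (blue, below 0) at day 6. The X had 39.9% higher and 3.8% lower, outside the range of the 19 autosomes in both directions. With nothing set aside, 35.0% of X genes were higher and 14.7% lower.

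Both germ-line and broadly expressed genes of the X took part, and the single genes given next were chosen after their values were seen. Nxf2, an mRNA export factor of germ cells, had 298, 232, 243 and 262 CPM in the adult libraries and 615, 611, 587 and 589 in the day 6 libraries, at 1.22 ± 0.16 (SE; edgeR adjusted p = 2.4e-05). Ott, a multi-copy germ-line gene whose reads may be split among copies, had 293, 272, 242 and 208 CPM in the adult libraries and 647, 551, 573 and 635 in the day 6 libraries, at 1.25 ± 0.14 (SE; edgeR adjusted p = 7.9e-06). The groups did not overlap for either. Among genes expressed in most tissues, the zinc finger factor gene Zfx (1.15 ± 0.17), the helicase gene Ddx3x (1.05 ± 0.18), the purine salvage gene Hprt (0.81 ± 0.18) and the paraspeckle gene Nono (0.75 ± 0.13) rose. Kdm6a (0.22 (edgeR adjusted p = 0.53)), Kdm5c (-0.39 (edgeR adjusted p = 0.16)) and Huwe1 (-0.16 (edgeR adjusted p = 0.44)) did not pass.

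The X-linked gene families on the lists followed. MAGE and Xlr genes, most of them germ-line genes of the X, had 16 of 32 tested members higher and 4 lower, at a median of 0.61. That median was near those of X genes, 0.54 for those left and 0.42 for all tested, of which 39.9% and 35.0% were higher. At a fold threshold of 1.5 no MAGE or Xlr member was called higher, against 13.8% of the X genes left. Xlr5a had 89.9, 81.2, 75.3 and 69.6 CPM in the adult libraries and 129.6, 171, 126 and 142 in the day 6 libraries, at 0.85 ± 0.16 (SE; edgeR adjusted p = 0.00042), and Mageb16 rose by 0.93 ± 0.20 and Mageb4 by 0.61 ± 0.13. Without adult replicates 2 and 4, 5 members rose. Of 22 tested Rhox genes, the reproductive homeobox cluster of the X, 8 rose and none fell, with a median of 0.69. Their higher share, 36.4%, was near that of X genes, 39.9% of those left and 35.0% of all tested. Rhox2e had 29.1, 36.8, 30.7 and 29.7 CPM in the adult libraries and 80.3, 81.2, 56.3 and 58.0 in the day 6 libraries, at 1.13 ± 0.20 (SE; edgeR adjusted p = 0.00037), and Rhox2a rose by 1.19 ± 0.22. Members of both families are near-identical copies, so single values are uncertain.

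Runs of neighbouring tested genes called in the same direction are given for the longest alone, since how many runs chance gives was not tested. The longest higher run had 11 genes, an X-linked stretch with Lrch2, Luzp4, Ott and 8 predicted genes, a multi-copy family whose members may share reads. The longest lower run had 20 genes around Slx, an X-linked spermatid gene, of which 19 were spermatid-linked.

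The largest rises among genes with at least 20 CPM in a group, beyond Aldh1a1, Gstm2 and Kit were of several kinds. Cxcl12, the chemokine that guides germ cells and stem cells to their niche, had 1.86, 0.976, 3.42 and 1.94 CPM in the adult libraries and 23.7, 13.8, 30.5 and 21.2 in the day 6 libraries, at 3.44 ± 0.41 (SE; edgeR adjusted p = 1.4e-05). Its receptor gene Cxcr4 did not pass, at -0.78 (edgeR adjusted p = 0.08). Hmgn5, an X-linked nucleosome-binding protein, had 9.05, 4.59, 6.14 and 5.66 CPM in the adult libraries and 52.1, 18.8, 43.1 and 58.8 in the day 6 libraries, at 2.76 ± 0.37 (SE; edgeR adjusted p = 3.2e-05), and day 6 replicate 2 was at 0.37 of the mean of the others. Dkc1, the pseudouridine synthase of small nucleolar RNPs and telomerase, had 33.4, 24.6, 34.1 and 20.3 CPM in the adult libraries and 116, 122, 115 and 135 in the day 6 libraries, at 2.12 ± 0.21 (SE; edgeR adjusted p = 2.1e-06). The protease inhibitor gene Serpine2 (2.26 ± 0.29), the kinase gene Rps6ka6 (2.08 ± 0.22), the homeobox gene Six4 (2.05 ± 0.27) and the G protein gene Gnai1 (2.00 ± 0.25) were also among the 15. So were Gstm1, Ppig, Gsta3, Esf1 and AU015836, with log2 fold changes of 2.23, 2.18, 2.11, 2.07 and 1.98; that of Gstm1 was 1.60 without day 6 replicate 2.

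The largest falls by the same rule were all spermatid-linked. Prr30 had 8.52, 210.3, 41.0 and 119.8 CPM in the adult libraries and 0, 0, 0 and 0 in the day 6 libraries, a mean at least 1030-fold lower at day 6 against the floor of 3 counts over that group. With the linked genes set aside, the 15 largest falls held genes of several kinds. Zic1, a zinc finger factor, had 18.9, 18.2, 22.8 and 20.2 CPM in the adult libraries and 2.78, 0.721, 2.38 and 1.51 in the day 6 libraries, at -3.43 ± 0.52 (SE; edgeR adjusted p = 9.4e-05). Tfap2a, an AP-2 factor, had 31.6, 38.6, 40.5 and 34.6 CPM in the adult libraries and 3.75, 3.49, 4.35 and 5.08 in the day 6 libraries, at -3.12 ± 0.24 (SE; edgeR adjusted p = 2.7e-07). Fgd5, an exchange factor for small GTPases, had 166, 175, 205 and 147 CPM in the adult libraries and 17.5, 20.2, 21.7 and 19.5 in the day 6 libraries, at -3.13 ± 0.22 (SE; edgeR adjusted p = 1.1e-07), so that no day 6 library came near the adult range. Zfp36, which binds and destabilizes mRNA (-2.74 ± 0.23), Gprc5c (-2.77 ± 0.33), Nfatc4 (-2.72 ± 0.65), the calcium channel genes Ryr1 (-2.68 ± 0.33) and Cacnb1 (-2.60 ± 0.31), and Spon1 (-2.61 ± 0.28) fell next to Igfbp5 and H2bc9. Also among the 15 were the histone gene H2bc4 (-2.99) and the noncoding RNA genes Mir6236 (-4.32) and Rpph1 (-2.68, and -3.31 without day 6 replicate 2).

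Other pathways of the niche are given beside the shares over all tested genes, 17.3% higher and 21.9% lower. Of 33 Wnt genes 3 rose (9.1%) and 8 fell (24.2%). The lower count was 5 without adult replicate 3 or without day 6 replicate 1, 2 or 4. Fzd10, a Wnt receptor (-2.19 ± 0.42), and the repressor gene Tcf7l1 (-1.81 ± 0.21) fell, and the secreted antagonist gene Sfrp2 rose, at 1.15 ± 0.27 (SE; edgeR adjusted p = 0.0029). Of 23 Notch genes 3 rose and 5 fell, with Notch1 (-0.87 ± 0.21), Notch2 (-1.03 ± 0.14) and the ligand gene Dll4 (-2.47 ± 0.51) lower and the nuclear partner gene Rbpj higher (0.58 ± 0.14). Of 32 BMP, activin and TGF-beta genes 5 rose and 6 fell, and without adult replicate 1 or 2 the higher count was 3. The receptors Bmpr1a (0.89 ± 0.15) and Tgfbr1 (1.07 ± 0.22) rose and Tgfbr3 (-1.62 ± 0.30) fell. Of 51 integrins, cadherins and adhesion receptors 5 rose (9.8%) and 11 fell (21.6%), with P-cadherin, Cdh3, at -1.08 ± 0.21. Lrp6 (0.03 (edgeR adjusted p = 0.92)), Smad4 (0.02 (edgeR adjusted p = 0.92)) and Epcam (0.13 (edgeR adjusted p = 0.52)) did not pass.

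**Figure D5:**
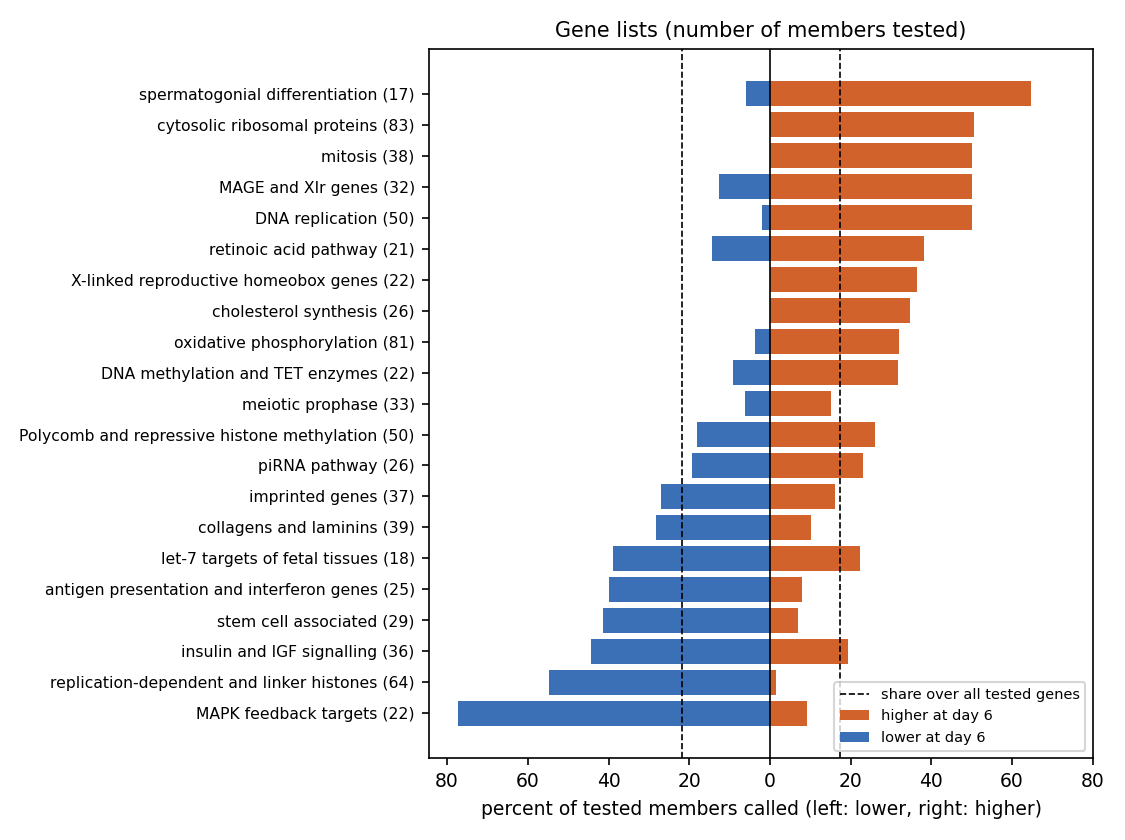
For a selection of gene lists, without those of spermatids, spermatocytes and somatic cells, the percent of tested members called higher (orange, right) or lower (blue, left) at day 6, with the number of members in brackets and dashed lines at the shares over all tested genes, 17.3% and 21.9%. The MAPK targets (17 of 22 lower) and histones (35 of 64 lower) extend farthest to the left among the lists drawn and the differentiation list (11 of 17 higher) farthest to the right.

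The other adult groups place the day 6 levels. The comparisons of day 6 with GFRA1neg, which called 18.8% of genes higher and 24.9% lower, and with KITpos, which called 21.8% and 27.3%, share the day 6 libraries with the main one, so their values are set side by side. Kit had 17.6 CPM ± 3.75 in GFRA1pos, 188 ± 29.4 at day 6, 27.6 ± 14.7 in GFRA1neg and 353 ± 76.3 in KITpos. The day 6 level lay between those of the Kit-negative and Kit-positive adult cells, at -0.91 (edgeR adjusted p = 0.0048) on the log2 scale against KITpos. Gfra1 had 389.9 CPM ± 28.9 in GFRA1pos, 145 ± 18.3 at day 6, 22.8 ± 3.31 in GFRA1neg and 4.71 ± 2.64 in KITpos, so the day 6 level was below that of GFRA1pos and above that of GFRA1neg (2.66 (edgeR adjusted p = 1.7e-06)). Egr2 and Etv5 kept the same order as Gfra1, with 2.68 (edgeR adjusted p = 1.1e-07) for Egr2 and 2.31 (edgeR adjusted p = 2e-05) for Etv5 against GFRA1neg. Stra8 had 23.4 CPM ± 3.33 in GFRA1pos, 73.5 ± 26.7 at day 6, 9.92 ± 0.918 in GFRA1neg and 249 ± 59.5 in KITpos, again in between, at -1.76 (edgeR adjusted p = 3.2e-06) against KITpos.

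Dazl, Mcm4 and Hells were above all 3 adult groups at day 6. Dazl had 264 CPM ± 43.7 in GFRA1pos, 869.8 ± 128 at day 6, 408 ± 91.1 in GFRA1neg and 562 ± 62.1 in KITpos, with 0.63 (edgeR adjusted p = 0.0025) against KITpos, the nearest group. Mcm4 had 103 CPM ± 11.7 in GFRA1pos, 209 ± 14.7 at day 6, 64.4 ± 6.69 in GFRA1neg and 133 ± 11.5 in KITpos, with 0.65 (edgeR adjusted p = 0.0001) against KITpos. Hells at day 6 was also above KITpos, at 0.49 (edgeR adjusted p = 0.019). The difference of Lin28b between day 6 and KITpos did not pass, at 0.16 (edgeR adjusted p = 0.47). Cxcl12 had 2.05 CPM ± 1.01 in GFRA1pos, 22.3 ± 6.90 at day 6, 42.5 ± 12.6 in GFRA1neg and 1.60 ± 0.939 in KITpos, so its rise over GFRA1pos was not a rise over GFRA1neg (-0.93 (edgeR adjusted p = 0.043)). Six4 had 12.8 CPM ± 2.95 in GFRA1pos, 52.9 ± 15.7 at day 6, 125 ± 30.3 in GFRA1neg and 1.45 ± 0.826 in KITpos and had the same order. The histone gene H2ac4 was lower at day 6 than in each adult group, at -0.95 (edgeR adjusted p = 0.0047) against GFRA1neg and -1.24 (edgeR adjusted p = 0.00041) against KITpos.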

How the data were processed

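The data were the counts per gene that the authors deposited for 17 libraries, 24013 rows named by Entrez number. The adult column of replicate 1 is spelled with GFP for GFR and was read as GFRA1pos. Symbols came from RefSeq for GRCm38.p6, used for names and chromosomes, for 23930 rows; 83 had none, and 1179 rows shared their counts with another row. The submitters' processing notes name mm9, Trim Galore, TopHat2 2.0.4, Bowtie2 2.0.0-6, Bowtie, DESeq2 and DESeq; which program and annotation counted the reads, and whether by strand, was not given, so antisense and overlapping genes cannot be told apart.

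Differences were tested with edgeR 4.0.16 (R 4.3.3) by the quasi-likelihood F-test, fitting a mean for each of the 4 groups over the 17 libraries, after TMM scaling and filterByExpr, with Benjamini-Hochberg adjustment over 15451 genes. The common biological coefficient of variation was 0.30. On simulated data over 15253 genes the step recovered 83.3% of 66 genes changed 4-fold, 37.3% of 67 changed 2-fold and 6% of 67 changed 1.5-fold. Of 90 calls 6 were on unchanged genes. Far fewer genes were changed there than were called in the data, and in random directions, so these rates may not hold for this comparison. Alternatives were run in edgeR, limma 3.58.1 and DESeq2 1.42.0, and figures drawn with matplotlib 3.10.9.

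Members, the 46 lists and the tests were chosen with earlier results of these data known. Named were genes of the sort, the 15 rises and 15 falls of largest size with a mean of at least 20 CPM and no overlap, from each list up to 6 members of smallest adjusted p and up to 3 of the highest level that did not pass; genes outside this rule (Amh, Sox9, Dnmt3l, the X-linked examples, and genes named by position) were chosen after their values were seen. A list was described by its counts and median, with no test of its own. Some genes that the rule names are not reported here.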

Additional observations from a re-analysis of the deposited data

Results flagged for a closer look

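In a group of 4 libraries a value was singled out where its gap to the nearest library, as a share of the group's range, exceeded Dixon's critical value. Over 404 groups of 4 values, those of the genes named with values, this held for 33, and chance alone flags about 1 in 20 groups. Day 6 replicate 2 accounted for 20 of the 33 and adult replicate 2 for 4.

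In day 6 replicate 2, values above the rest of the group were those of Aldh1a1 (125 CPM), Gstm1 (228 CPM), Gstm2 (56.4 CPM), AU015836 (55 CPM), Crabp1 (120 CPM), Sox9 (10.7 CPM), Txn1 (79.2 CPM), H2bc9 (11.8 CPM), Trim28 (354 CPM), Uhrf1 (253 CPM), Pcna (363 CPM), Dnd1 (29.8 CPM), Hspa8 (5222 CPM), Jund (17.1 CPM), Dusp1 (26.6 CPM) and Pdx1 (0.361 CPM). Values below the rest were those of Pou5f1 (5.53 CPM), Gfra1 (118 CPM), Spred1 (43.3 CPM) and Zfx (84.8 CPM). The same library had the highest summed Sertoli markers, 955 CPM, and the part of these in the values above was not tested.

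Elsewhere, Lin28b (122 CPM) and Orc3 (177 CPM) stood apart in day 6 replicate 4, Tapbp (20.6 CPM) in day 6 replicate 3 and Tdrd1 (397 CPM) in day 6 replicate 1. Among the adult libraries, replicate 1 stood apart for Phlda1 (25.8 CPM), replicate 2 for Insr (31.3 CPM), Pdx1 (11.6 CPM), Ppig (21.2 CPM) and Zfx (32.3 CPM), replicate 3 for Egr2 (250 CPM) and Nr4a1 (50.1 CPM) and replicate 4 for Atp5pb (64.3 CPM) and Igf2r (152 CPM).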

How the results depend on the processing

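The direction of the comparison held under the 23 alternatives run: no named gene that passed changed sign. With 1 library left out in turn, 2198 to 2449 genes were higher and 2833 to 3306 lower, and of the genes left after setting aside 2153 to 2413 and 1671 to 1979. A fold threshold of 1.5 (glmTreat) called 628 higher and 1709 lower, and 599 and 652 of the genes left, since it calls only changes shown to exceed that fold. Limma voom with sample quality weights called 3184 of the genes left lower. Without adult replicates 2 and 4 (a fit chosen after seeing the data, with fewer samples), 1420 were higher, 2038 lower and 1364 of the genes left higher; 7 named genes, Dnmt3a, Igf2bp3, Gfra2, Rbpj, Amh, Sox9 and Nrtn, then had edgeR adjusted p of 0.061, 0.053, 0.071, 0.086, 0.13, 0.08 and 0.062. Leaving the linked genes out before scaling, also chosen after seeing the data, gave 2510 higher and 2434 lower, upper-quartile scaling 2437 and 3632, and DESeq2 2730 and 3751. Of 202 named genes 147 passed with all libraries, 107 of them also under every alternative that tested them, and 2 or fewer were lost with any 1 library left out (Amh or Nrtn). By limma voom 5 did not pass, Prm2, Mir6236, Nrtn, Nfatc4 and Prr30, at adjusted p of 0.13, 0.077, 0.065, 0.06 and 0.06. Cxcr4 and Phlda1, not called, passed in the edgeR fit of the 2 groups alone, at adjusted p of 0.005 and 0.0016.

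Deviations of same-numbered libraries correlated at 0.01, 0.077, -0.017 and 0.023, and those of other pairs at -0.06 to 0.035. Such low values over all genes cannot show whether the numbers mark shared handling. With the number as a replicate block in a fit of the 2 groups, 3202 genes were higher and 3490 lower. Of the genes left, 3151 were higher and 2729 lower. Without the block that fit gave 3020, 3430, 2976 and 2661. With the block, 54 histone genes and 19 stem-cell-associated genes fell, against 35 and 12 in the main fit. Spermatid markers went the other way, with 52 lower against 83. Day 6 libraries had fewer counts than the adult ones, and thinned to the same total the data gave 2486 higher and 3120 lower. With the most abundant row left out, 2659 were higher and 3470 lower.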

Other observations

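Genes of immediate early and heat responses, which cell isolation can raise, were split. Of 21 tested members 4 were higher and 7 lower at day 6, with a median log2 fold change of -0.47. Nr4a1, an early response nuclear receptor, had 42.9, 42.9, 50.1 and 42.2 CPM in the adult libraries and 8.61, 10.1, 11.3 and 9.07 in the day 6 libraries, at -2.19 ± 0.34 (SE; edgeR adjusted p = 0.0001), and shared its direction with Egr1, Zfp36 and Dusp1, all of them early response genes. The chaperone genes Hsp90aa1 (1.56 ± 0.20), Hspa8 (0.93 ± 0.15) and Hspa5 (0.85 ± 0.13) rose. Early response genes are induced by MAPK signalling and by handling of cells alike, and the part of handling in the falls of the MAPK targets was not tested. Hsph1 (0.08 (edgeR adjusted p = 0.72)) and Jund (-0.59 (edgeR adjusted p = 0.068)) did not pass, though Jund did without day 6 replicate 2 (edgeR adjusted p = 0.036).

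Antigen presentation and interferon genes were lower at day 6 in 10 of 25 tested members and higher in 2, with a median of -0.69. The lower count was 6 without day 6 replicate 1 and 5 without day 6 replicate 4. Stat2, which carries interferon signals (-1.39 ± 0.23), Tapbp, which loads peptides onto MHC class I (-1.21 ± 0.21), and the guanylate-binding protein gene Gbp2 (-1.75 ± 0.40) were among those that fell, and B2m (-0.50 (edgeR adjusted p = 0.084)) and Irf1 (-0.46 (edgeR adjusted p = 0.2)) did not pass, though B2m did without adult replicate 4 (edgeR adjusted p = 0.043) or day 6 replicate 2 (0.04). Markers of macrophages and leukocytes summed to 39.0 to 46.1 CPM in the adult and 24.7 to 31.5 at day 6, and their part in these falls was not tested.

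Of the Hedgehog genes, 2 of 13 tested members were higher (15.4%) and 4 lower (30.8%), against 17.3% and 21.9% over all tested genes. Gli1, a target of the pathway (-2.13 ± 0.57), fell and Gli2 rose (2.06 ± 0.45), while Ptch1 (-0.21 (edgeR adjusted p = 0.51)) and Gli3 (-0.13 (edgeR adjusted p = 0.52)) did not pass. Without adult replicate 2, 3 or 4 or day 6 replicate 2, 1 member rose. Meiotic prophase genes had 5 of 33 members higher (15.2%) and 2 lower (6.1%). Without adult replicate 2 or day 6 replicate 1, 3 or 4 the higher count was 3. In 6 of the 8 fits that each left out 1 library 1 member fell. Rec114 (0.92 ± 0.16) and the X-linked gene Tex11 (1.01 ± 0.19) rose, and Stag3 (0.19 (edgeR adjusted p = 0.3)) and Syce1 (0.43 (edgeR adjusted p = 0.074)) did not pass.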
